A study of Mus musculus with 2 samples.

Results

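The 10 genes described here, *Spp1*, *Gpnmb*, *Trem2*, *Fabp5*, *Lgals3*, *Cd9*, *Lpl*, *Apoe*, *Cd63* and *Abca1*, are known for their expression in lipid-handling macrophages. They are 10 of the 32285 genes in the count tables, and all 10 were found by symbol. The members were chosen by their levels and KO over WT ratios in these same cells, so that those values are given as a description. Single-cell RNA sequencing (scRNA-seq) was performed on immune cells from neonatal mouse hearts, with 5 wild-type (WT) hearts pooled for 1 library and 5 *Lyve1* KO hearts pooled for the other. *Lyve1* encodes LYVE-1, a receptor for the matrix sugar hyaluronan that is found on lymphatic endothelium and on tissue-resident macrophages. Myocardial infarction (MI) was induced on postnatal day 2 in every mouse, and the mice were 9 days old when their hearts were collected, 7 days after MI. Live CD45+ cells, which are leukocytes, were obtained by FACS as cells that did not take up the dead-cell dye 7-AAD, and were captured with 10x Genomics 5′ chemistry.

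The strain listed for the KO is *Lyve1*-/-, an allele not limited to macrophages. The part of the gene it removes is not given in the sources used here, and 751 *Lyve1* UMIs were counted in the kept cells of the KO library. The WT hearts shared the infarction, the age and the sort with the KO hearts. No uninjured heart and no other day after MI was analysed here. Cells were not assigned to single hearts here, and each genotype was therefore 1 sample without a replicate. No test between genotypes was made. Intervals are 95% intervals for counting error and leave out the spread between hearts. Those of levels and ratios, taken on summed counts, also leave out the spread between cells. Sequencing pool and genotype cannot be told apart.

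Macrophages that take up lipid, from dying cells or lipoproteins, share a set of genes in many tissues. TREM2 is a surface receptor that binds lipids and apolipoproteins and signals through the adaptor TYROBP. Cells with this program take up and store fatty acids, hydrolyse lipid in lysosomes and pass cholesterol to apolipoprotein E through the transporter ABCA1. In infarcted hearts, macrophages with osteopontin, the product of *Spp1*, are known from the wound and the fibrotic area.

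*Spp1* (ENSMUSG00000029304), *Gpnmb* (ENSMUSG00000029816) and *Trem2* (ENSMUSG00000023992) carry most of the results that follow, and the 250 bases before their start sites are shown for that reason. The sequences are from RefSeq on GRCm38.p6, run 5′ to 3′ on the strand of the gene and end at the base before the listed start. Capitals mark matches, on either strand, to 4 motifs. The motif of AP-1 was written as TGANTCA. The E-box was searched as the letters CACGTG, a PU.1 type site as the letters GAGGAAGT, and the TATA box as the letters TATAAA.
Spp1 (chr5:104434861-104435110, plus strand): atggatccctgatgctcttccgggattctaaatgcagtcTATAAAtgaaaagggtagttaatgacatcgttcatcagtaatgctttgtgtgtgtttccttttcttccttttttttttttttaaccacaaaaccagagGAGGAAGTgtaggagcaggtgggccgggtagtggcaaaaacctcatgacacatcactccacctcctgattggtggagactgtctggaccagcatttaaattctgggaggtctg
Gpnmb (chr6:49036268-49036517, plus strand): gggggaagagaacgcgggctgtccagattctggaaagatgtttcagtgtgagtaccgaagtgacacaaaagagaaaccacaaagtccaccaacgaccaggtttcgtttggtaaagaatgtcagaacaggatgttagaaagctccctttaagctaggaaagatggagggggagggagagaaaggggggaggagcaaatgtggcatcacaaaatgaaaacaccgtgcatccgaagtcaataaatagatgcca
Trem2 (chr17:48346151-48346400, plus strand): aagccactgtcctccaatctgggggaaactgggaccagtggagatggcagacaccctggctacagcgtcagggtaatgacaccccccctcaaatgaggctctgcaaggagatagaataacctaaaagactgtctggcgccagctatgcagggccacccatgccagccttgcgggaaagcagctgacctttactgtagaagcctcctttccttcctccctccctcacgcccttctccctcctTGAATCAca
The *Spp1* window held GAGGAAGT at −113 and TATAAA at −211, counted from the start. A downstream start that is also listed for *Spp1* held none of the 4 motifs. The *Trem2* window held TGANTCA at −9, and the *Gpnmb* window held no match. Of 32851 promoter windows of the same length, 2.44% held GAGGAAGT, 12.4% TATAAA, 6.75% TGANTCA and 6.02% CACGTG. Of the other members, *Abca1* held CACGTG at −147 and TATAAA at −29, and 1 of 3 listed *Apoe* starts held TATAAA. *Lgals3*, *Cd9* and *Cd63* held no match, and *Fabp5* and *Lpl* were not matched. A match is a run of letters, and no binding was measured. In the GENCODE annotation of GRCm38, the protein-coding genes themselves lie as follows, with *Spp1* on chromosome 5 from 104435118 to 104441050, *Gpnmb* on chromosome 6 from 49036546 to 49070929 and *Trem2* on chromosome 17 from 48346401 to 48354147. Also annotated are *Fabp5* on chromosome 3 from 10012548 to 10016607, *Lgals3* on chromosome 14 from 47367751 to 47386160 and *Cd9* on chromosome 6 from 125460266 to 125494791. The remaining members are *Lpl* on chromosome 8 from 68880491 to 68907448, *Apoe* on chromosome 7 from 19696109 to 19699188, *Cd63* on chromosome 10 from 128900989 to 128912822 and *Abca1* on chromosome 4 from 53030787 to 53159895.

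*Lyve1* was at 247 CPM, which is a level scaled to the total UMIs of the same cells, over all kept WT cells and at 13.1 CPM over all kept KO cells. The tables held 67968938 unique molecular identifiers (UMIs) in the WT and 61555917 in the KO library, and 4187 WT and 3391 KO cells were kept. Of the barcodes, 9 were found in both libraries, 3 of them among kept cells. CCR2- macrophage-like cells numbered 1075 and 475 (WT and KO), CCR2+ macrophage-like cells 235 and 227, and monocyte-like cells 416 and 450. The median UMIs per cell in these classes were 24087 and 26181, 24745 and 30556, and 18264 and 21197. Cells were clustered without the 10 members, without the other lipid and lysosomal genes given at the end, and without *Lyve1*. The CCR2+ class was made of a cluster led by *Vegfa* (198 WT and 195 KO cells) and a small cluster led by *Cd209a* (37 and 32 cells), in which 2 of the 10 leading genes were markers of dendritic cells. The 10 macrophage markers summed to 909 and 1315 CPM in the *Cd209a*-led cluster, below the 1840 and 1858 CPM of monocyte-like cells (WT and KO). Its 8 dendritic cell markers summed to 1295 and 873 CPM. Its place among macrophage-like cells is thus uncertain, and values of the CCR2+ class include it. Every named cluster had at least 8 of its own 10 markers in over 25% of its cells. In CCR2+ macrophage-like cells *Lyve1* was at 2.95 CPM in the WT and 21.0 CPM in the KO library (18 and 151 UMIs), against 549 and 21.7 CPM in CCR2- cells. The larger value of the CCR2+ class was thus in the KO library, and its source was not tested.

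Within both libraries, the 10 genes fell into 3 patterns over macrophages and monocytes. *Spp1*, *Gpnmb*, *Fabp5*, *Cd9* and *Lpl*, 5 of 10 members, had their highest level in the CCR2+ class of each library. These are levels of whole classes: in the WT library *Cd9* was higher in the non-classical monocyte cluster, led by *Ace*, than in the CCR2+ class. The place of *Lpl* rested on few cells with many UMIs. At equal depth, a *Lpl* UMI was found in 25.5% (WT) and 28.2% (KO) of CCR2+ cells. In CCR2- cells the shares were higher, at 42.1% and 46.6%. *Apoe*, *Cd63* and *Abca1* had it in the CCR2- class of each. *Trem2* and *Lgals3* had their highest class in different places in the WT and KO libraries. Of 10340 genes compared in the same way, 11.0% were highest in CCR2+, 38.5% in CCR2- and 30.5% in monocyte-like cells in both libraries. The classes themselves are clusters of these cells, and the genes were chosen knowing their pattern, so that no test was attached to these orders.

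**Figure D1:**
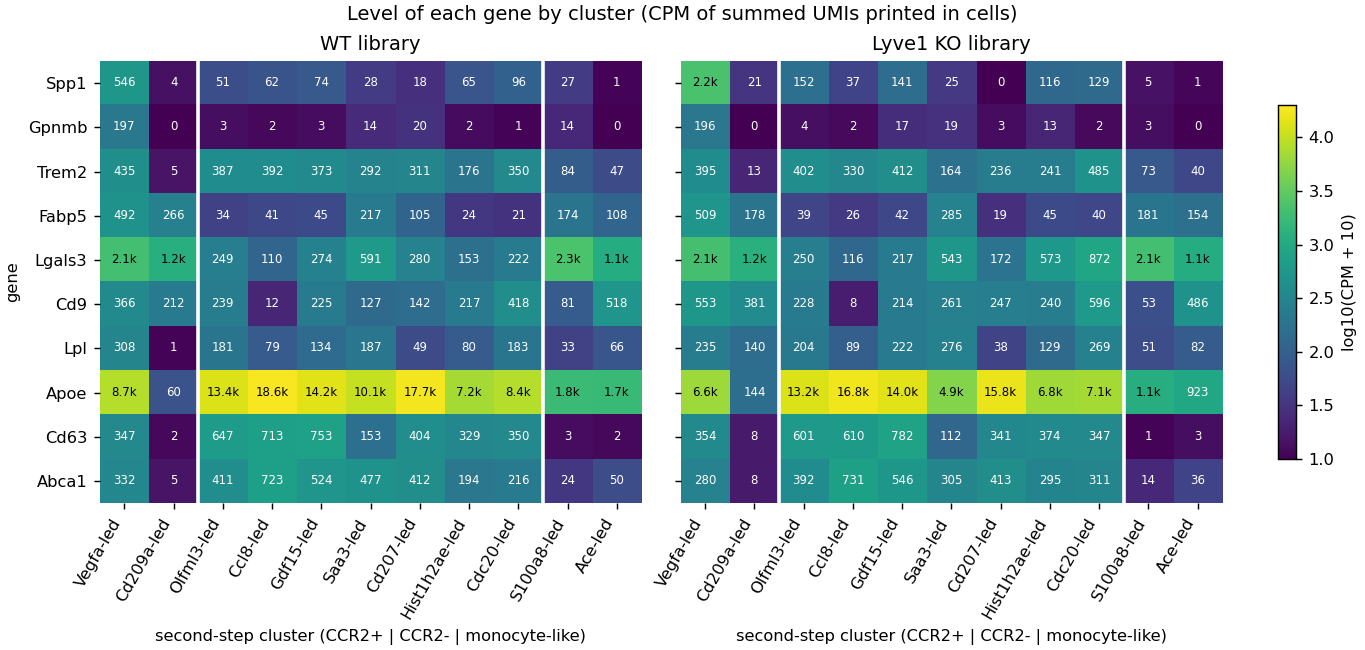
Level of each of the 10 genes (rows) in the 11 named clusters of CCR2+, CCR2- and monocyte-like cells (columns), for the WT library on the left and the Lyve1 KO library on the right, with CPM printed (k marks a CPM times 1000) and colour giving log10(CPM + 10). *Spp1* and *Gpnmb* were highest in the *Vegfa*-led cluster in both libraries (546 and 2209.9 CPM for *Spp1*), and *Cd63* was near 0 in both monocyte-like clusters.

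*Spp1* encodes osteopontin, a secreted phosphoprotein that binds integrins and CD44. In CCR2+ macrophage-like cells it was at 436 CPM (419–453) in the WT library, from 2657 UMIs, and at 1848 CPM (1817–1880.0) in the KO library, from 13300 UMIs. The counting intervals did not overlap, and the log2 ratio of KO over WT, taken after adding 10 CPM to both sides, was 2.06 (2.0 to 2.12). In CCR2- macrophage-like cells the level was 55.1 CPM in the WT and 87.5 CPM in the KO library, with a log2 ratio of 0.58. There, 1 KO cell held 331 UMIs, 26.5% of the class total. Leaving out the cell with the most UMIs in each library moved this ratio to 0.26, and leaving out 10 cells in each moved it to −0.014. In monocyte-like cells *Spp1* was at 19.2 CPM in the WT (152 UMIs) and 3.39 CPM in the KO library (33 UMIs), a log2 ratio of −1.13 (−1.30 to −0.93). A single WT cell held 49.3% of those UMIs, and without the highest cell of each library the ratio was −0.69. For comparison, lymphocytes (the B cell-like and T cell-like clusters together) were at 0.273 and 0.913 CPM. Neutrophil-like cells were at 82.2 CPM in the WT and 15.2 CPM in the KO library, lower in the KO library like the monocyte-like cells.

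The *Vegfa*-led cluster accounted for nearly all *Spp1* of the CCR2+ class. It held 61.0% of the *Spp1* UMIs of the 3 classes in the WT and 91.0% in the KO library, while it held 11.6% and 19.3% of their UMIs of all genes. The *Cd209a*-led cluster was at 4.03 and 21.0 CPM. Among CCR2- clusters, the *Olfml3*-led cluster was at 51.4 CPM in the WT and 152 CPM in the KO library, the *Gdf15*-led cluster at 73.8 and 141 CPM, and the *Ccl8*-led cluster, with the resident markers *Folr2* and *Cd163* among its leading genes, at 61.8 and 36.5 CPM. The direction thus differed among CCR2- clusters. The classical monocyte cluster, led by *S100a8* with *Ly6c2* and *Vcan*, was at 27.2 and 4.71 CPM, and the non-classical cluster, led by *Ace*, at 0.840 and 1.12 CPM. Beside the ratio in the *Vegfa*-led cluster stand its 10 CCR2+ markers, with a summed level of 19176 CPM in the WT and 19662 CPM in the KO library. Its 10 macrophage markers summed to 10252 and 8216 CPM. Its 10 cardiomyocyte markers summed to 71.2 and 14.8 CPM, its 8 neutrophil markers to 141 and 111 CPM, and its 8 dendritic cell markers to 8.85 and 14.6 CPM. The part of these markers in the *Spp1* ratio was not tested.

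Per cell, *Spp1* was detected in shares of CCR2+ macrophage-like cells that differed by less than counting error between libraries, and the cells that had it held more in the KO library. Because depth differed, each cell was thinned at random to 10300 UMIs, and shallower cells were left out (35 WT and 21 KO cells of the class). A UMI of *Spp1* was then found in 35.5% of WT and 39.3% of KO cells, which differ by 3.82 percentage points (−5.56 to 13.1). Without thinning the shares were 42.1% and 47.1%, and in thinned lymphocytes they were 0.270% and 0.369%. Before thinning, the median depth was 10818 (WT) and 13148 (KO) UMIs in B cell-like and 10035 and 12444 UMIs in T cell-like cells. Within the *Vegfa*-led cluster, cells with at least 20 *Spp1* UMIs made up 9.76% of WT cells (16 of 164) and 24.4% of KO cells (43 of 176). The difference was 14.7 points, with a counting interval of 6.71 to 22.4 that leaves out the spread between hearts. The limit of 20 UMIs was not among the planned comparisons. This share also reflects the levels by which *Spp1* was chosen, and is given as a description. Among cells with any *Spp1* UMI, the median was 5.50 UMIs in the WT and 22.5 UMIs in the KO library, and the highest cells had 74 and 434 UMIs. *Spp1* was concentrated in few cells in both libraries: the 10 highest CCR2+ cells held 50.8% of the class's *Spp1* UMIs in the WT and 54.0% in the KO library. Without those 10 cells in each, *Spp1* was at 225 CPM in the WT and 905 CPM in the KO library.

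**Figure D2:**
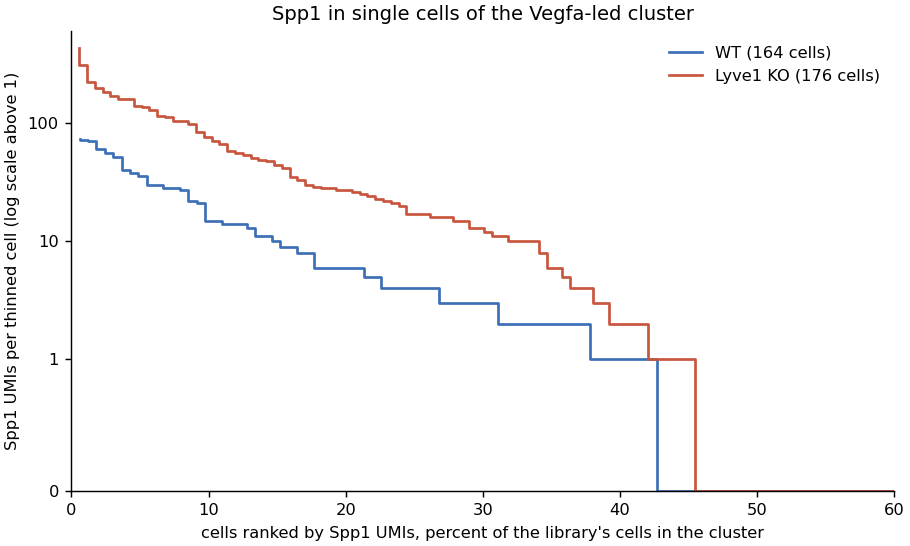
*Spp1* UMIs per cell of the *Vegfa*-led cluster after thinning to 10300 UMIs (y axis, log scale above 1), with cells ranked from highest to lowest and the rank given as a percent of the cells of each library (x axis, to 60%). The WT curve reached 0 at 42.7% and the Lyve1 KO curve at 45.5% of cells, and the KO curve lay higher among cells with *Spp1*, with a maximum of 434 against 74 UMIs.

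Both pools held hearts of both sexes, and transcripts of *Xist* and of Y-linked genes divided part of the cells into groups that came from different hearts. Cells with only *Xist* UMIs were called female and cells with only Y-linked UMIs male. This gave 1038 female and 1982 male of 4187 kept WT cells, and 984 and 1435 of 3391 kept KO cells. Cells with both or neither signal were in neither part. In CCR2+ macrophage-like cells *Spp1* was higher in the KO library in both parts. Female cells were at 499 CPM in the WT and 1342 CPM in the KO library (log2 ratio 1.41), and male cells at 381 and 1995 CPM (2.36). The share of CCR2+ cells with a *Spp1* UMI did not move one way: it was 47.5% in WT and 40.3% in KO female cells, and 27.8% in WT and 39.8% in KO male cells. Cells with at least 20 UMIs were more frequent in the KO library in both parts, at 8.75% and 15.3% of female and 6.96% and 24.4% of male cells (WT and KO), with overlapping intervals in female cells. In CCR2- cells the ratio was −0.24 in female and 1.02 in male cells, which lay in opposite directions.

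*Apoe* encodes apolipoprotein E, the secreted acceptor of cellular cholesterol, and was highest in CCR2- macrophage-like cells. It was at 13884 CPM (13840.4–13928) in the WT and 12146 CPM (12089–12203) in the KO library there, at 6924 and 5559 CPM in CCR2+ cells and at 1727 and 1044 CPM in the monocyte-like class. Over all cells the level was lower in the KO library in the 3 classes, with log2 ratios of −0.19, −0.32 and −0.72. In CCR2- cells the sign differed by sex, at 0.10 in female and −0.35 in male cells. Nearly every CCR2- cell had a UMI (99.9% and 98.6% after thinning), against 26.2% and 14.6% of lymphocytes. In monocyte-like cells the shares were 87.9% and 79.0%, lower in the KO library as in lymphocytes. The part of such a shift in the monocyte-like ratio was not tested. The *Ccl8*-led cluster had the highest level (18625 and 16762 CPM). In the *Saa3*-led cluster of 59 WT and 51 KO cells, *Apoe* was at 10106 CPM in the WT and 4930.2 CPM in the KO library, a log2 ratio of −1.03. The 10 listed macrophage markers, all detected, summed to 16141 and 11898 CPM in this cluster (WT and KO), and the 10 monocyte markers, all detected, to 369 and 1472 CPM, with *Chil3* at 1213 CPM the highest of them in the KO library. Their part in the *Apoe* ratio was not tested.

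*Trem2*, *Gpnmb*, *Cd9* and *Cd63*, which all encode membrane proteins, differed in where they were found. *Trem2*, the lipid receptor, was at 361 CPM (354–368) in CCR2- and 347 CPM (333–362) in CCR2+ macrophage-like cells of the WT library, and at 326 CPM (317–336) and 332 CPM (319–346) in those of the KO library. These intervals overlapped between the classes in each library, and the log2 ratios of KO over WT were −0.14 and −0.06. It was found in 89.7% and 86.1% of CCR2- cells and in 70.5% and 71.8% of CCR2+ cells after thinning. In monocyte-like cells it was at 73.2 and 60.6 CPM. The *Cd209a*-led cluster had little, 4.84 and 12.6 CPM, so that within the CCR2+ class *Trem2* lay in the *Vegfa*-led cluster at 435 and 395 CPM.

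*Gpnmb*, a glycoprotein of lysosomal and plasma membranes, was found mostly in the *Vegfa*-led cluster. This cluster held 82.0% of the *Gpnmb* UMIs of the 3 classes in the WT and 89.6% in the KO library, at 197 CPM (184–209.5) and 196 CPM (185–208). The levels of the libraries overlapped, unlike those of *Spp1*. It was at 4.83 and 8.13 CPM in the CCR2- class and in the monocyte-like class at 9.50 and 2.16 CPM, from 75 and 21 UMIs, under the 100 UMIs required for a ratio to be counted. The log2 ratio in CCR2+ cells differed in sign between female and male cells, at −1.41 in female and 0.83 in male cells. The highest single cells held 139 UMIs (female, WT) and 247 UMIs (male, KO), while the shares of CCR2+ cells with a UMI were 22.5% and 22.2% of female and 17.4% and 16.3% of male cells.

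*Cd9* and *Cd63* encode tetraspanins, of the cell surface and of late endosomes. *Cd9* had the second-largest ratio of the list in CCR2+ macrophage-like cells, with 335 CPM (321–350.0) in the WT and 525 CPM (508–542) in the KO library (log2 ratio 0.63 (0.56 to 0.71)). In CCR2- cells it was at 186 and 186 CPM and in the monocyte-like class at 213 and 212 CPM. It divided clusters of the same class: the *Ccl8*-led cluster was at 12.3 and 8.03 CPM against 239 and 228 CPM in the *Olfml3*-led cluster. Among monocytes, the *Ace*-led cluster was at 518 and 486 CPM against 80.9 and 53.3 CPM in the *S100a8*-led cluster. *Cd63* separated macrophages from monocytes, with 582 and 498 CPM in CCR2- and 277 and 297 CPM in CCR2+ cells, but 2.41 and 1.65 CPM in the monocyte-like class. A UMI was found in 2.31% and 0.473% of monocyte-like cells after thinning, against 0.541% and 0.369% of lymphocytes. The KO share was near that of lymphocytes. The WT share was higher but rested on few of the 347 thinned WT cells, and this difference was not tested.

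Of the genes for lipid enzymes and binding proteins, *Fabp5* encodes a fatty acid binding protein of the cytosol. It was at 446 and 455 CPM in CCR2+ cells, at 154 and 171 CPM in the monocyte-like class and at 58.5 and 85.9 CPM in CCR2- cells (WT and KO). The log2 ratio of *Fabp5* in CCR2- cells was −0.48 in female and 0.92 in male cells. Within the CCR2- class the *Saa3*-led cluster stood above the others at 217 and 285 CPM. This cluster made up 59 of 1075 WT and 51 of 475 KO cells of the class, with median depths of 47279 and 55409 UMIs. The part of such differences in cluster make-up in the CCR2- ratios of *Fabp5* and other members was not tested. *Fabp5* has near-identical copies in the genome, so that its level is uncertain where reads fit more than 1 of them, and it was also found in 45% and 23.3% of T cell-like cells. *Lpl* encodes lipoprotein lipase, which frees fatty acids from lipoproteins. It was at 246 and 219.6 CPM in CCR2+ cells, 144 and 184 CPM in CCR2- cells and, lowest, 43.1 and 62.1 CPM in the monocyte-like class. Although its level was highest in the CCR2+ class, the share of cells with a UMI was not: it was 25.5% and 28.2% there against 42.1% and 46.6% in CCR2- cells, and the 10 highest CCR2+ cells held 67.3% and 46.1% of the class's *Lpl* UMIs.

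*Lgals3* encodes galectin-3, a sugar-binding protein that is found on damaged lysosomes and is also secreted. It was shared by CCR2+ macrophage-like cells, at 1880.3 CPM (1846–1915) and 1959 CPM (1927–1991), and monocyte-like cells, at 1935 CPM (1904–1966) and 1717 CPM (1692–1744) (WT and KO). The intervals of the classes overlapped in the WT and not in the KO library. CCR2- cells were far lower at 258 and 302 CPM, with a log2 ratio of −0.54 in female and 0.70 in male cells. *Abca1*, the transporter that passes cholesterol to apolipoproteins, was highest in CCR2- and lowest in monocyte-like cells, with 473 and 476 CPM in CCR2-, 265 and 235 CPM in CCR2+ and 32.0 and 21.7 CPM in the monocyte-like class. It was highest in the *Ccl8*-led cluster among the named clusters, at 723 and 731 CPM, as was *Apoe*. The *Ccl8*-led cluster therefore combined the highest *Apoe* and *Abca1* with the lowest *Cd9* and *Lgals3* levels of the CCR2- clusters in both libraries.

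Between genotypes, few members passed a log2 ratio of 1 in size. In CCR2+ macrophage-like cells *Spp1* passed it, 1 of 10 members, beside 0.468% of 8554 genes with at least 100 UMIs (0.245% higher and 0.222% lower in the KO library). In CCR2- cells 0 of 10 members passed, beside 0.473% of 10993 genes (0.346% higher and 0.127% lower). In monocyte-like cells 1 of the 8 members with enough UMIs passed, again *Spp1* and with the lower level in the KO library, beside 0.240% of 8762 genes (0.0342% higher and 0.205% lower). The median log2 ratio of the members was 0.12 in CCR2-, 0.04 in CCR2+ and −0.20 in monocyte-like cells, against −0.06, −0.02 and 0.00 over all genes counted. In the same order, 7, 6 and 2 of 10 members were higher in the KO library. The share of all genes higher in the KO library is not given here. In CCR2- cells the ratios of *Cd9* (0.004) and *Abca1* (0.01) lay near 0. Female and male CCR2- cells gave opposite signs for 7 of 10 members.

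**Figure D3:**
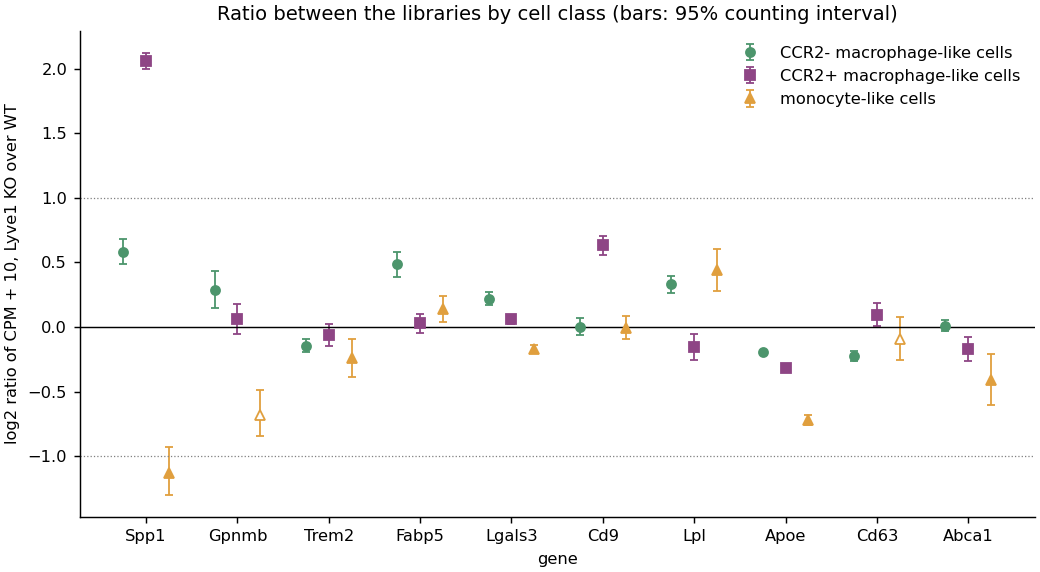
Log2 ratio of Lyve1 KO over WT, after adding 10 CPM (y axis), for the 10 genes (x axis) in CCR2- macrophage-like (circles), CCR2+ macrophage-like (squares) and monocyte-like cells (triangles), with bars for 95% counting intervals, dotted lines at a ratio of 1 in size and open symbols for fewer than 100 UMIs. *Spp1* lay at 2.06 in CCR2+ and −1.13 in monocyte-like cells, and *Cd9*, the next member in CCR2+ cells, at 0.63.

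Most of the 45 pairs of members were detected together in CCR2+ cells more often than the product of their shares, by a small median margin. The share of pairs of other genes with such ratios is not given here. All shares were taken at 10300 UMIs per cell and compared with the product of the shares of both genes. *Spp1* and *Gpnmb* were detected together in 29 of 200 WT cells, where 13.8 would follow from the product, a ratio of 2.09. In the KO library they were together in 35 of 206 cells, a ratio of 2.28. The ratio includes the *Cd209a*-led cells, in which no *Gpnmb* UMI was found and *Spp1* was detected in 2.78% (WT) and 3.33% (KO) after thinning. Within the *Vegfa*-led cluster the ratios were 1.74 and 1.97. *Gpnmb* and *Cd63* had ratios of 2.08 and 2.11 in the CCR2+ class. Over all 45 pairs the ratio was above 1 for 38 pairs in the WT and 39 in the KO library (median 1.18 and 1.18). In the *Vegfa*-led cluster alone it was above 1 for 37 and 35 pairs, with medians of 1.04 and 1.09. In CCR2- cells the medians were 1.0 and 1.01, where most members were found in nearly all or few cells. Single pairs in CCR2- cells were as high as 2.51 (*Gpnmb* and *Fabp5*, 14 WT cells) and 1.63 (*Gpnmb* and *Lgals3*, 11 KO cells), among pairs with at least 5 cells from the product. Pairs of genes in the same cells share depth and cluster, and no test was made of these ratios.

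**Figure D4:**
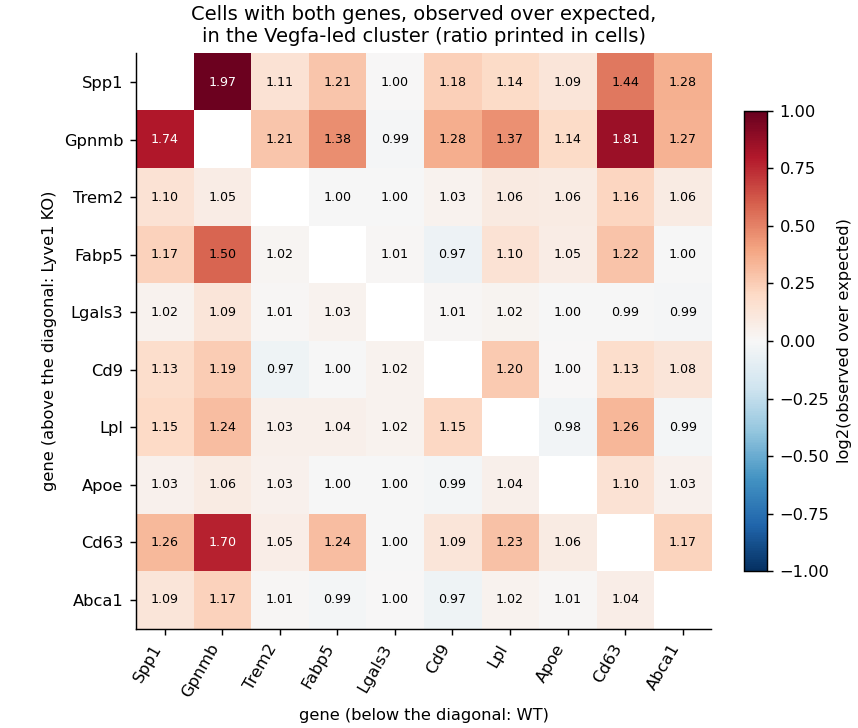
Cells with both genes over the number given by the product of both shares, for all 45 pairs in the *Vegfa*-led cluster at 10300 UMIs per cell, with WT below and Lyve1 KO above the diagonal, the ratio printed and colour giving its log2. *Spp1* with *Gpnmb* stood at 1.74 (WT) and 1.97 (KO), the highest pair in each library. A pair with a gene detected in most cells cannot stand far above 1.

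Cells of the *Vegfa*-led cluster with *Spp1* carried more of each other member than cells without it. All 9 other members were higher in CPM in *Spp1*-positive cells in both libraries. The share of all genes that were higher in *Spp1*-positive cells is not given, here or for CCR2- cells. Ranked by detection in the same cells of this cluster as *Spp1* (phi coefficient, described below), *Gpnmb* came 1st of 8564 genes. *Apoe* ranked 310, *Lpl* 447 and *Lgals3* 1396. *Apoe* (94.5% of WT and 87.5% of KO cells) and *Lgals3* (92.1% and 98.3%) were detected in most cells of the cluster. Phi with *Spp1* cannot be high for such genes, so their ranks do not show how closely they followed *Spp1*. With 10 CPM added to both levels, the 9 other members were 1.40-fold (*Abca1*) to 5.48-fold (*Gpnmb*) higher in the WT library. In the KO library they were 1.82-fold (*Lgals3*) to 26.6-fold (*Gpnmb*) higher. *Gpnmb* itself was at 373 CPM with and 59.9 CPM without *Spp1* in the WT, and at 417 and 6.07 CPM in the KO library, the last from 6 UMIs. *Apoe* was at 12315 CPM in WT cells with and 6758 CPM in WT cells without *Spp1*, and at 11845 and 3609 CPM in KO cells. *Gpnmb* was detected in 41.4% of *Spp1*-positive and 10.6% of *Spp1*-negative WT cells, and in 43.8% and 4.17% of KO cells. Read the other way, *Gpnmb*-positive cells held a mean of 12.4 *Spp1* UMIs in the WT and 61.9 in the KO library, and *Gpnmb*-negative cells 3.82 and 12.8. The median was 4 and 28 UMIs in *Gpnmb*-positive cells, and 0 in *Gpnmb*-negative cells of both libraries, of which 32.8% and 32.8% had a *Spp1* UMI. In CCR2- cells the contrast was smaller: 7 of the 9 other members were higher in CPM in *Spp1*-positive cells in each library, by a median over the 9, with 10 CPM added, of 1.52-fold and 1.36-fold.

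In CCR2+ cells, the share with at least 5 members differed by less than counting error between libraries. After thinning, at least 5 of the 10 genes were detected in 65.0% of WT and 64.1% of KO CCR2+ cells, with a gap of −0.922 points (−10.1 to 8.33). The shares were 77.2% and 73.2% in CCR2- cells and 21.0% and 16.3% in monocyte-like cells. In lymphocytes they were 0 of 370 and 0 of 542, which allows shares of up to 0.992% and 0.678%. The CCR2+ class was mixed, with 78.7% and 73.9% in its *Vegfa*-led and 2.78% and 6.67% in its *Cd209a*-led cluster. All 10 genes in 1 cell were seen in 8 WT and 13 KO cells of the *Vegfa*-led cluster and in 3 WT and 2 KO CCR2- cells, and in 0 monocyte-like cells of either library.

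**Figure D5:**
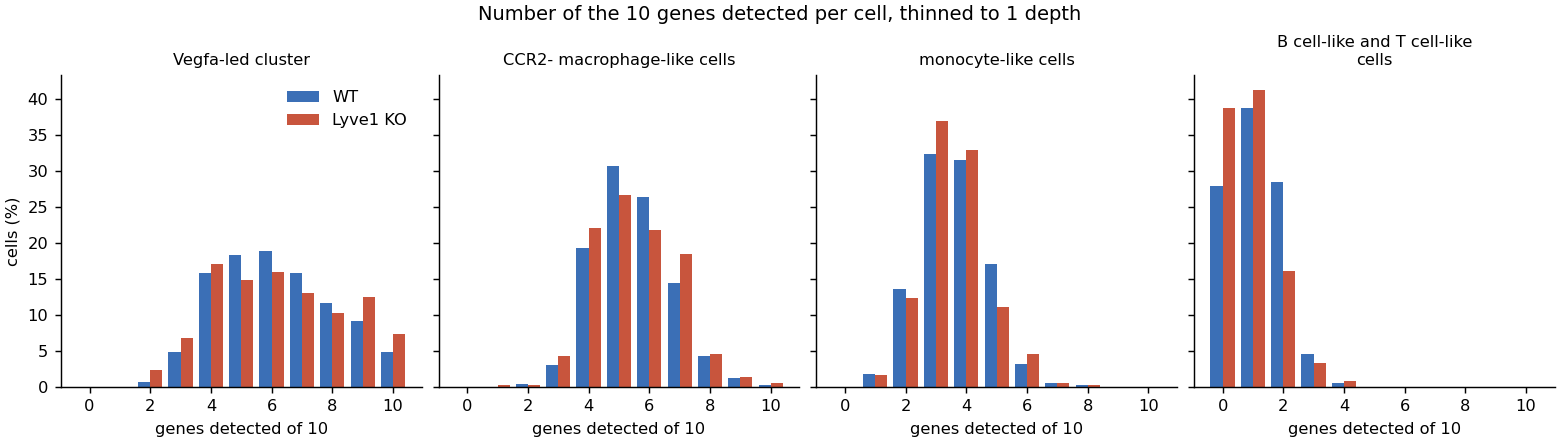
Share of cells (y axis, %) by the number of the 10 genes detected at 10300 UMIs per cell (x axis), for WT and Lyve1 KO cells of the *Vegfa*-led cluster, CCR2- macrophage-like cells, monocyte-like cells and lymphocytes. The *Vegfa*-led cluster had a median of 6 genes and reached 10 genes in 8 WT and 13 KO cells, CCR2- cells had a median of 5 and monocyte-like cells of 4 (WT) and 3 (KO), and lymphocytes had at most 4.

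Other genes of lipid handling and lysosomes were examined from 9 lists with 70 genes. One listed gene was not analysed here. In CCR2+ macrophage-like cells, 0 of the 63 listed genes with enough UMIs passed a log2 ratio of 1 in size, with a median of 0.01. In CCR2- cells 1 of 65 was higher in the KO library and 0 were lower (median 0.02), and in monocyte-like cells 1 of 59 was higher and 0 were lower (median −0.03). The gene in CCR2- cells was *Arg1*, encoding arginase, at 431 CPM in the WT and 1214 CPM in the KO library (log2 ratio 1.47). Without thinning, it was found in only 95 of 1075 WT and 81 of 475 KO cells. The 10 highest cells held 45.5% (WT) and 49.2% (KO) of its UMIs in the class. The deep *Saa3*-led cluster made up 59 of the 1075 WT and 51 of the 475 KO cells. The part of such cluster make-up in the *Arg1* ratio was not tested. The gene in monocyte-like cells was *Marco*, a scavenger receptor, at 5.57 CPM in the WT and 22.6 CPM in the KO library. Among the TREM2 signalling partners, the adaptor *Tyrobp* was at 2046 CPM in the WT and 2054 CPM in the KO library in CCR2+ cells, and 0 of 5 genes passed. Of the lipid uptake receptors, *Cd36* was at 185 CPM in the WT and 172 CPM in the KO library in CCR2+ cells, and 0 of 7 passed. Of the genes for lysosomal lipid breakdown, *Psap*, encoding the precursor of saposins, was at 3127 CPM in the WT and 3589.7 CPM in the KO library, and 0 of 6 passed. For storage, *Plin2*, the coat protein of lipid droplets, was at 519 CPM in the WT and 541 CPM in the KO library with 0 of 8 past. Of the LXR and PPAR receptors and targets, 0 of 9 passed, and *Mylip*, an LXR target that degrades the LDL receptor, had the lowest ratio at 81.7 CPM in the WT and 53.8 CPM in the KO library (−0.52). *Apoc2*, an activator of lipoprotein lipase, was at 147 CPM in the WT and 109.9 CPM in the KO library, with 0 of 2 apolipoproteins past. Of the osteopontin receptors, *Cd44* was at 906 CPM in the WT and 1015 CPM in the KO library, and 0 of 7 passed. Among further genes of lipid-associated macrophages, with the protease *Ctsb* at 2236 CPM in the WT and 2301 CPM in the KO library, and among tetraspanins, with *Cd53* at 458 CPM in the WT and 442 CPM in the KO library, 0 of 13 and 0 of 6 passed. *Arg1* and *Itgax*, an integrin of activated macrophages, lay just under the limit in CCR2+ cells, with ratios of 0.94 and 0.93, and were singled out after their values were seen.

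Genes that followed the members over clusters were sought by the correlation of log2(CPM + 10) over the 13 WT and 10 KO clusters with at least 20 cells, taking the lower of both values and 10481 genes. These clusters include the unnamed *Gm26917*-led and *Rap1gap2*-led ones, with median depths of 5810.5 and 4533.5 UMIs. The *Cd207*-led, *Hist1h2ae*-led and *Cdc20*-led clusters had too few KO cells and entered in the WT library only. Most like *Spp1* were *Ahnak2* (r = 0.85), *Anxa4* (0.84), *B3gnt7* (0.83), *Bnip3* (0.81) and *Csf1* (0.79). Most like *Gpnmb* were *Sdc1*, *Pdpn*, *Vegfa*, *Atp6v0d2* and *Furin*, from 0.87 to 0.75. Most like *Trem2* were *Apoe* (0.96), a member itself, and the lysosomal genes *Ctsd* (0.94), *Pld3* (0.94) and *Tpp1* (0.94), with *Cndp2* (0.93). *Trem2* thus followed *Apoe* more closely than it followed *Spp1* (0.72) or *Gpnmb* (0.29). Over single CCR2+ cells, the genes detected with *Spp1* most closely by the phi coefficient, again the lower of both libraries, were *Rhoc* (0.41), *Gpnmb* (0.40) and *Pld3* (0.37), followed by *Trem2*, *Abca1*, *Mmp14*, *C5ar1*, *Cd63*, *Slc6a8* and *Ecm1*, among 8716 genes. Of these 10 genes, 4 were members (*Gpnmb*, *Trem2*, *Abca1* and *Cd63*). The class includes the *Cd209a*-led cells. Within the *Vegfa*-led cluster alone, *Gpnmb* came first at 0.36 and was the only member among the 10 highest of 8564 genes. There, *Cd63* ranked 26, *Trem2* 34 and *Abca1* 115. The highest phi that a gene can reach with *Spp1* is lower for genes detected in most cells. Clusters share libraries and cells share depth, so that these coefficients are descriptions.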

How the data were processed

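The authors deposited raw UMI counts per gene and barcode from Cell Ranger 8.0.1 on mm10 (version and build per the submitters' processing notes), for barcodes called as cells and without normalization. Demultiplexing to hearts was not repeated. Barcodes needed 500 genes, 250 UMIs and no more than 30% mitochondrial UMIs to be kept (4285 WT and 3464 KO barcodes). For doublets, scrublet (scanpy 1.11.5) marked by its automatic call 1 WT and 4 KO barcodes, so the 98 and 73 highest scores (0.4% per 1000 barcodes) were left out.

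Cells were log-normalized (scale 10000), integrated by CCA, scaled with cell-cycle scores regressed out and clustered with Seurat 5.3.0 (R 4.3.3) at resolution 0.8 with k = 20 and 30 dimensions, from 2000 variable genes without 86 genes (members, listed genes, *Lyve1* and sex-linked genes). Macrophage and monocyte clusters among 31 first-step clusters were clustered again into 15, of which 11 were named. A name needed 3 markers in at least 25% of the cells, and no opposing list with more markers among the 10 leading genes. A cluster of low depth for its library also needed a marker of its own among those 10 genes. The remaining 4 are left out of the classes (157 WT and 79 KO cells led by *Gm26917*, 69 and 87 by *Rap1gap2*, 16 and 2 by *Ccl22*, 9 and 7 by *Actc1*).

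Levels are summed UMIs of a class divided by its summed UMIs of all genes (CPM). Log2 ratios used CPM + 10 and, to be counted, at least 100 UMIs in both libraries together. Thinning was to 10300 UMIs, the 10th percentile over the 3 classes. Intervals are exact Poisson (CPM), Clopper-Pearson (shares), Newcombe (differences of shares) and the exact binomial split of the counts (ratios), all at 95%. Interval and ratio code was tested on simulated data. Python 3.11.15, numpy 2.4.6, scipy 1.17.1, pandas 2.3.3, statsmodels 0.14.6, matplotlib 3.10.9 and edgeR 4.0.16 (TMM factors only) were used.

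Members, gene lists, markers and comparisons were chosen with earlier results of these data known. The text names the 10 members, from each list the gene with the highest WT level over the 3 classes together and each gene past a log2 ratio of 1 in CCR2+ cells (*Arg1* in CCR2- and *Marco* in monocyte-like cells were named after their values were seen, as the only ones counted there), and the genes most like *Spp1*, *Gpnmb* and *Trem2* (5 each over clusters, and 10 over cells for *Spp1*). Alternatives were other cell limits, no doublets left out, all variable genes in clustering, resolution 1.2, each sex alone, 1 CPM added, TMM scaling, the mean of per-cell CPM, no minimum of UMIs, thinning to 3000 UMIs or none, and leaving out the highest cells.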

Additional observations from a re-analysis of the deposited data

Results flagged for a closer look

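*Spp1* had opposite directions in CCR2+ macrophage-like and monocyte-like cells under the same contrast, with a log2 ratio of KO over WT of 2.06 in the former and −1.13 in the latter. With 1 library per genotype, the difference between the classes was not tested. The CCR2+ value rested on 2657 WT and 13300 KO UMIs, and the monocyte value on 152 and 33 UMIs, of which a single WT cell held 75. *Spp1* was detected in 1.44% of WT and 1.18% of KO monocyte-like cells at 10300 UMIs per cell, against 0.270% and 0.369% of lymphocytes (B and T cell-like clusters). Summed neutrophil markers in monocyte-like cells were 1279 CPM in the WT and 671 CPM in the KO library, and *Spp1* in neutrophil-like cells was 82.2 and 15.2 CPM. Their part in the monocyte value was not tested.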

How the results depend on the processing

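The log2 ratio of *Spp1* in CCR2+ macrophage-like cells was past 1 under all 12 alternatives tried. It was 1.41 in female and 2.36 in male cells, 1.96 without the 10 cells with the most *Spp1* UMIs in each library and 2.0 without the *Cd209a*-led cluster, and the last pair of alternatives was chosen after seeing the data. The number of members past a log2 ratio of 1 in CCR2+ cells was 2 in female cells, *Gpnmb* being the second, with a lower level in the KO library. In CCR2- cells it was 1 in male cells and 1 with the mean of per-cell CPM. In monocyte-like cells it was 0 in male cells, with the mean of per-cell CPM, with stricter cell limits, without the cell with the most UMIs and without the 10 highest cells. The monocyte result thus depends on 1 WT cell. The share of CCR2+ cells with a *Spp1* UMI, KO minus WT, was −7.22 percentage points in female cells, against 3.82 over all cells. *Spp1* in CCR2- cells, at 0.58 over all cells, had a log2 ratio of −0.24 in female and 1.02 in male cells, 1.06 with the mean of per-cell CPM, 0.31 with all variable genes in clustering, 0.26 without the highest cell and −0.014 without the 10 highest cells of each library. *Gpnmb* in CCR2+ cells ranged from −1.41 to 0.83 in log2 ratio. The classes of the alternatives hold in part other cells, and the cause of these moves was not tested. Female and male cells gave opposite signs for 16 of 30 member ratios, among them *Lpl* in monocyte-like cells (1.28 and −0.40). Some of these ratios lay near 0, such as those of *Trem2* in CCR2+ cells (−0.15 and 0.01). The share of all genes with opposite signs is not given here, so that this count is no result about the members. In monocyte-like cells the level of *Spp1* was lower in the KO library under 10 of 11 alternatives. The log2 ratio was 0.0 without the 10 highest cells of each library. After thinning, *Spp1* was found in 1.44% of 347 WT and 1.18% of 423 KO cells of this class. Leaving out 10 cells thus left too little *Spp1* to compare, and that alternative cannot show a direction. Of the values that answer a comparison, 82 stayed within counting error (counts within 1.5 times) and 13 moved. Further member ratios stayed within counting error in 218 cases and moved beyond it in 110. No paired analysis was possible because each genotype had 1 library. *Gpnmb* and *Cd63* had fewer than 100 UMIs in monocyte-like cells of both libraries together, so that their ratios there were not counted.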
